A study of Homo sapiens with 12 samples.

Results

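Chaperones of the endoplasmic reticulum (ER) and other genes of the unfolded protein response (UPR) were followed in RKO cells, a human colon cancer line, through arginine starvation. The set was given as a list of 10 genes and 11 transcript identifiers, and 9 of the genes had a transcript in both count tables, out of 19686 transcripts in the RNA table and 19849 in the footprint table. They were HERPUD1 (ENST00000439977), DNAJB9 (ENST00000249356), HSPA5 (ENST00000324460), HSP90B1 (ENST00000299767), HYOU1 (ENST00000617285), SDF2L1 (ENST00000248958), CALR (ENST00000316448), CANX (ENST00000247461) and PDIA4 (ENST00000652332). PDIA6 (ENST00000272227) and a second PDIA4 identifier (ENST00000286091) were not present in both tables and are not analysed here. The gene names are those that came with the list. The count tables carry transcript identifiers and the reference tables were searched by gene identifiers, so 0 of the 19849 could be paired with a symbol. For the same reason no other UPR gene was counted and markers of the cell line were not checked.

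Starved cells (WT, 12.5 uM arginine) and fed cells (WT, 400 uM arginine) were held for 24 hours in DMEM without other arginine and with 10% dialyzed serum, after plating in full medium. RNA-seq, which measures transcript levels, and ribosome profiling, which sequences the fragments that ribosomes protect (footprints), were done concurrently, with n = 3 libraries for each treatment and assay. The labels do not say whether the 3 libraries of a group came from separate cultures, so p-values measure the spread between libraries, which may be technical. Library totals were 4670881 to 7967215 counts for RNA and 2063952 to 4364383 for footprints.

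The ER lumen is where secreted and membrane proteins fold. When unfolded proteins build up, 3 membrane sensors (PERK, IRE1 and ATF6) start the UPR: PERK phosphorylates the initiation factor eIF2 and slows translation while ATF4 is made, and XBP1 and ATF6 raise the transcription of chaperones and of genes for the degradation of misfolded proteins. Amino acid shortage reaches eIF2 and ATF4 through another kinase, GCN2. The promoters of many UPR chaperones carry the ER stress response element (ERSE), which NF-Y binds together with ATF6 or XBP1.

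The genes did not move as 1 group. HERPUD1 and DNAJB9 rose in RNA and in footprints. HSPA5, HSP90B1 and HYOU1 rose in RNA while their footprints did not pass the test. CALR, PDIA4, CANX and SDF2L1 fell in both assays. Some alternative fits, given below, lost the RNA calls of SDF2L1, CANX and HYOU1 and the footprint call of CANX. Changes below are log2 fold changes of starved over fed with standard errors (SE), fitted with TMM scaling factors, and levels are counts per 1000000 counts of the library (CPM), which set a gene against the other transcripts and do not tell how much RNA a cell held. "Called" means an adjusted p under 0.05, from the quasi-likelihood test of edgeR adjusted by Benjamini-Hochberg across every transcript tested.

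Sequences upstream of the start sites are shown first, because the element that ATF6 and XBP1 use is the feature these genes are best known to share. RefSeq promoters (GRCh38.p14) were found for all 9 genes, 4 start sites for CANX, 2 for PDIA4 and 1 for each other gene. The RefSeq start need not be that of the transcript counted. The 250 bases before each start were searched on both strands for the ERSE (CCAAT, 9 bases of any kind, then CCACG). Its second type, ERSE-II (ATTGG, any 1 base, then CCACG), was also searched for. ERSE-II contains both boxes of the ERSE at another spacing, with CCAAT as its reverse complement ATTGG. Words searched for were TGACGTGG (of the UPR element), TGACGTCA (of the cAMP response element) and TGATGCAA (of the amino acid response element that ATF4 binds). Capitals mark these matches in the stretches below, only the boxes for the ERSE, and all stretches lie before the start site and are written 5′ to 3′ on the strand of the gene.

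HERPUD1, chr16:56931954-56932047, + strand: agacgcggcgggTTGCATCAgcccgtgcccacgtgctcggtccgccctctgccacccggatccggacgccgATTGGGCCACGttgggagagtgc
HSPA5, chr9:125241379-125241421, - strand: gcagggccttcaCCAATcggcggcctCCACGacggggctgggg
HSP90B1, chr12:103930204-103930351, + strand: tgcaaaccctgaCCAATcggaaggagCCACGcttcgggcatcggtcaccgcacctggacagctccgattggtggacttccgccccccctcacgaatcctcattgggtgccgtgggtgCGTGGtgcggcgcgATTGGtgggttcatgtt
HYOU1, chr11:119057262-119057405, - strand: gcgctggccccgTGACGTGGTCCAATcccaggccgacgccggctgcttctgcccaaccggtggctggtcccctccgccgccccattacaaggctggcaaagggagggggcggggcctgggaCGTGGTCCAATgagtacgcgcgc
SDF2L1, chr22:21642102-21642136, + strand: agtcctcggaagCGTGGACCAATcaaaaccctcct
CALR, chr19:12938372-12938414, + strand: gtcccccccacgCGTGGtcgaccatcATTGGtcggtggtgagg

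An ERSE lay upstream of 4 of the 9 genes: HSPA5 (bases -66 to -48 from the start), HSP90B1 (-194 to -176, and -89 to -71 on the opposite strand), CALR (-225 to -207, opposite strand) and CANX (before start sites 3 and 4). Both CANX matches are the same genomic bases. Among all 35116 RefSeq promoters, those of these genes included, 26 (0.074%) held an ERSE in a window of the same length. That share is per start site, while the count of 4 is per gene with any of its start sites allowed. ERSE-II lay upstream of 3 genes, HERPUD1 (-117 to -107), HYOU1 (-185 to -175 and -79 to -69) and SDF2L1 (-188 to -178). It was in 18 of all promoters (0.0513%), those of these genes included. ERSE-II was added after these promoters had been read, so its count and share only describe the sequences. DNAJB9 and PDIA4 held neither in these windows. HYOU1 also held TGACGTGG, which overlaps its upstream ERSE-II by 5 bases and occurs in 0.612% of promoters, and HERPUD1 was the only one of the 9 with TGATGCAA, on the opposite strand (-176 to -169; 0.772% of promoters). TGACGTCA was in none of the 9 windows and in 1.65% of all promoters, and the boxes CCAAT and CCACG alone were in 32.0% and 33.5%. The genes with an ERSE were HSPA5 and HSP90B1, whose RNA rose, and CALR and CANX, whose RNA fell. A match describes the letters only, and binding was not measured.

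**Figure D1:**
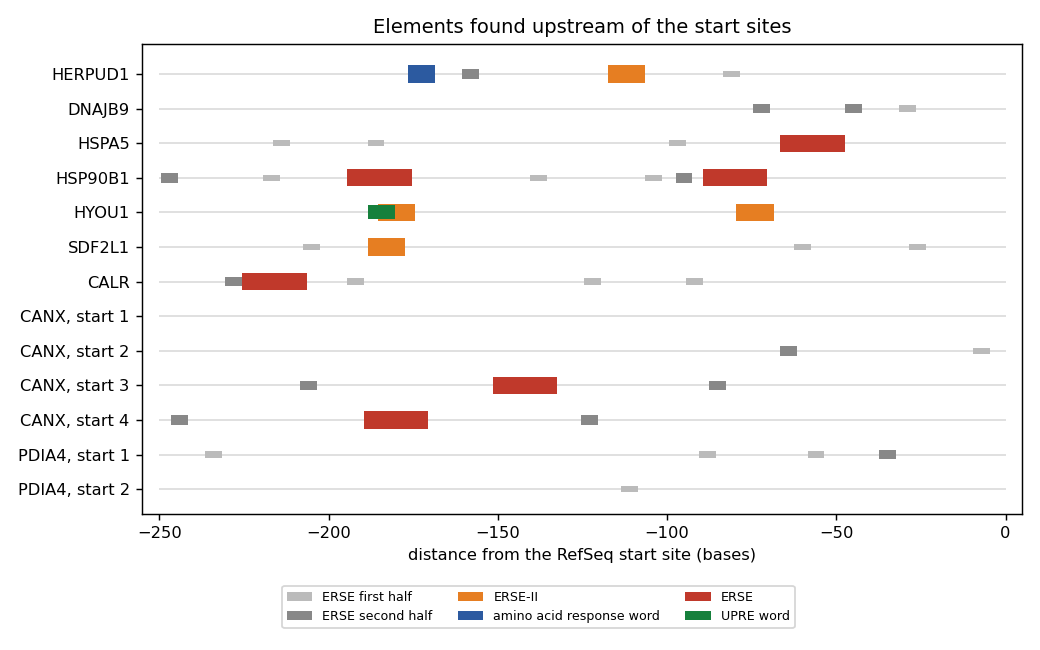
Elements found in the 250 bases before each RefSeq start site. The horizontal axis gives the distance from the start in bases, each row is 1 start site of a gene that has counts, and bars mark matches on either strand (narrow grey bars: the boxes CCAAT and CCACG alone). HSP90B1 holds 2 ERSE matches and HYOU1 holds 2 of ERSE-II. The DNAJB9 row, both PDIA4 rows and the rows of CANX starts 1 and 2 hold neither element, only separate boxes or no match.

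In RNA, all 9 genes were called, 5 higher and 4 lower. Of the 11572 transcripts tested, 33.8% were called higher and 34.1% lower, so a call by itself is common here and sizes say more than counts. The median RNA change was 0.34 over the 9 genes and −0.01 over all transcripts. Library totals without TMM factors would put the median of all transcripts at −0.12 and lower each RNA change by a like amount. In footprints, 2 genes were called higher and 4 lower, beside 18.9% and 20.9% of 13457 transcripts, and the medians were −0.24 over the 9 genes and 0.05 over all transcripts. Starved and fed libraries did not overlap for any of the 9 genes in RNA, as for 69.7% of all transcripts tested, nor for 6 of the 9 in footprints, as for 50.6% of all transcripts tested.

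**Figure D2:**
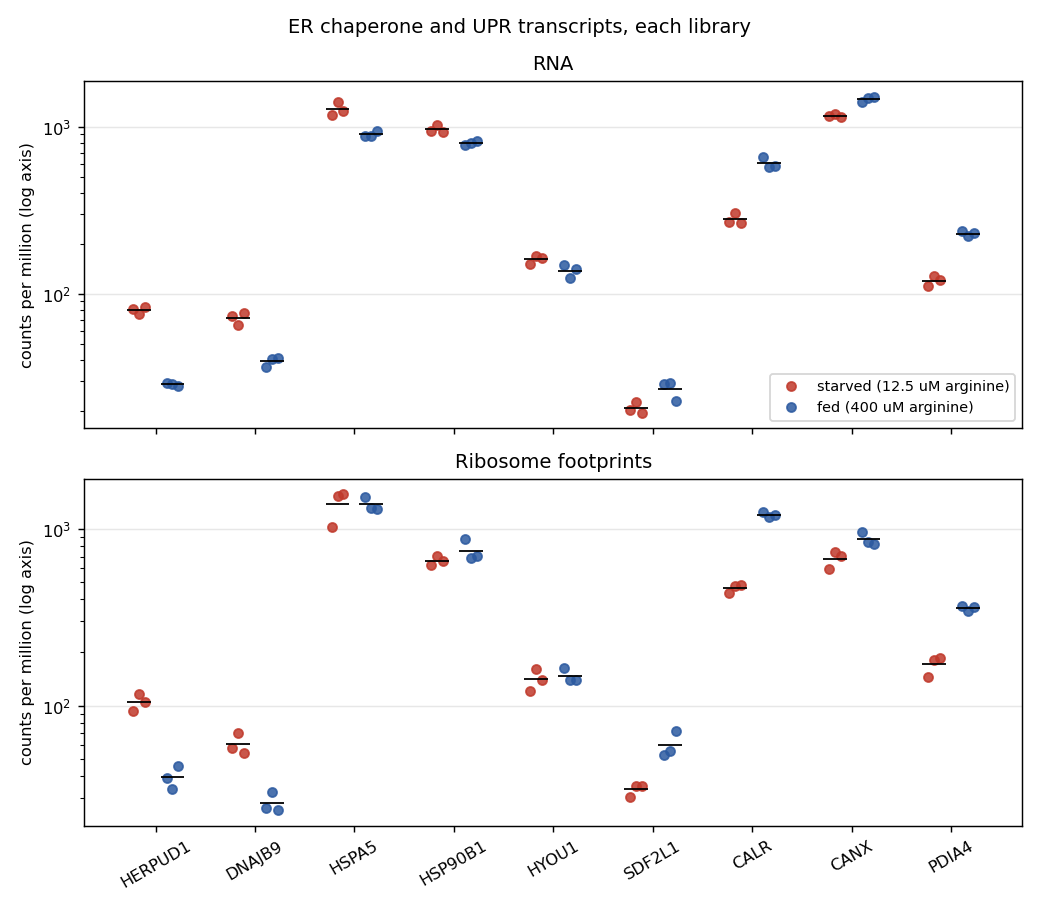
CPM of each library on a log axis, RNA above and footprints below, starved libraries (12.5 uM arginine, red) left of fed libraries (400 uM arginine, blue). Points are the 3 libraries of a group and lines their mean. The groups of HERPUD1, DNAJB9, CALR and PDIA4 stand apart in both panels, and those of HSPA5, HSP90B1 and HYOU1 overlap in footprints only.

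HERPUD1 encodes an ER membrane protein that helps assemble the machinery for degrading misfolded ER proteins, and it is a known target of both ATF6 and ATF4. Its RNA stood at 81.4, 76.1 and 83.9 CPM in starved libraries and at 29.2, 28.9 and 28.3 CPM in fed libraries. Every starved library lay well above every fed one, and the RNA rose by 1.60 (SE 0.09, 3.02-fold, edgeR adjusted p = 1.13e-24), the highest change of the 9 and higher than 97.8% of transcripts tested. Footprints on HERPUD1 were at 93.3, 117 and 104 CPM in starved libraries and 39.0, 33.4 and 45.3 CPM in fed libraries. The groups were again separate, with a rise of 1.37 (SE 0.15, 2.59-fold, edgeR adjusted p = 2.82e-05). Footprints per RNA did not pass the test (−0.14, SE 0.15, edgeR adjusted p = 0.562).

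DNAJB9 (ERdj4) is a J-domain co-chaperone that stimulates the ATPase of HSPA5 and is known to hold IRE1 in check. DNAJB9 had 73.7, 65.5 and 76.9 CPM of RNA in starved libraries, against 36.4, 40.7 and 41.4 CPM in fed libraries. Every starved library lay above every fed one, a rise of 0.99 (SE 0.09, 1.98-fold, edgeR adjusted p = 2.13e-15). Its footprints showed 57.7, 69.7 and 53.9 CPM in starved libraries and 26.4, 32.5 and 25.5 CPM in fed libraries. The groups were apart, although the fed values rest on 54 to 115 counts each. The footprint rise of 1.07 (SE 0.16, 2.09-fold, edgeR adjusted p = 0.000308) was close to that of the RNA, and DNAJB9 was the only one of the 9 with a fitted efficiency change above 0 (0.17, SE 0.18, edgeR adjusted p = 0.53).

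The other co-chaperone, SDF2L1, which works with DNAJ proteins in the ER lumen, went the other way. Its RNA was at 20.1, 22.6 and 19.5 CPM in starved libraries and 28.7, 29.1 and 22.9 CPM in fed libraries. The nearest values of the groups almost touched, and the fall of 0.26 on the log2 scale (−0.26, SE 0.12) only just passed the test (edgeR adjusted p = 0.0468). The call was lost without starved replicate 1 or 3 or without fed replicate 1 or 2 (edgeR adjusted p between 0.117 and 0.197), with DESeq2's Wald test, without a filter on low counts and with the abundance trend removed. Footprints on SDF2L1 fell more clearly, to 30.4, 35.0 and 35.0 CPM in starved libraries against 52.5, 55.2 and 71.3 CPM in fed libraries. All starved values lay below all fed ones (−0.87, SE 0.16, edgeR adjusted p = 0.0011).

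HSPA5 (BiP, GRP78) is the main HSP70 chaperone of the ER and the protein whose release is thought to activate the UPR sensors. Its RNA was at 1167, 1408 and 1246 CPM in starved libraries and at 873, 882 and 941 CPM in fed libraries. Every starved library was higher, by 0.61 in the fit (SE 0.08, 1.53-fold, edgeR adjusted p = 1.6e-10). Its footprints did not follow: they were at 1031, 1542 and 1575 CPM in starved libraries and 1522, 1323 and 1302 CPM in fed libraries. Starved replicate 1 was the lowest of the 6 and the other starved libraries were the highest. The footprint change was −0.05 (SE 0.15, edgeR adjusted p = 0.827), and 0.11 (SE 0.10, edgeR adjusted p = 0.425) without starved replicate 1. RefSeq lists a processed copy, HSPA5P1, and how reads shared with such copies were assigned is not given in the sources used here.

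HSP90B1 (GRP94), the HSP90 chaperone of the ER, behaved much like HSPA5. HSP90B1 RNA stood at 939, 1020 and 930 CPM in starved libraries and at 772, 798 and 825 CPM in fed libraries. The groups were separate, with a rise of 0.38 (SE 0.07, 1.30-fold, edgeR adjusted p = 5.68e-06), which was 0.20 with the abundance trend of each library removed. Footprints were at 624, 706 and 663 CPM in starved libraries and 879, 688 and 706 CPM in fed libraries, where fed replicate 1 stood highest and the rest overlapped (−0.24, SE 0.12, edgeR adjusted p = 0.129). The pseudogenes HSP90B2P and HSP90B3P could share its reads.

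HYOU1 (GRP170) is a large HSP70-like protein that exchanges the nucleotide of HSPA5. In starved libraries its RNA was at 152, 169 and 164 CPM, and in fed libraries at 148, 124 and 140 CPM. The lowest starved value lay just above the highest fed value, and the rise was 0.34 (SE 0.07, 1.26-fold, edgeR adjusted p = 4.06e-05). It was 0.22 with library totals alone, and with the abundance trend removed it was 0.14 and no longer called (edgeR adjusted p = 0.0691). Its footprints overlapped, at 121, 161 and 141 CPM in starved libraries and 164, 139 and 139 CPM in fed libraries (−0.11, SE 0.14, edgeR adjusted p = 0.534). An antisense gene, HYOU1-AS1, overlaps HYOU1, and the RNA kit does not mark the strand, so their RNA reads cannot be told apart.

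CALR and CANX are the lectin chaperones of the ER: calreticulin in the lumen and calnexin in the membrane hold newly made glycoproteins until they fold. CALR RNA was at 270, 305 and 266 CPM in starved libraries and at 657, 574 and 583 CPM in fed libraries. Every starved value was far below every fed one, a change of −1.0 (SE 0.07, 0.50-fold, edgeR adjusted p = 1.29e-19). CALR footprints dropped further, to 434, 478 and 481 CPM in starved libraries against 1249, 1168 and 1211 CPM in fed libraries. This change of −1.43 (SE 0.10, 0.371-fold, edgeR adjusted p = 1.06e-06) was the lowest of the 9, with 2.87% of tested transcripts below it. RefSeq lists a pseudogene of similar name, CALR4P, which was found by its symbol alone, and whether it shares reads with CALR was not tested.

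CANX changed less than its partner. Its RNA was at 1163, 1186 and 1143 CPM in starved libraries and 1413, 1482 and 1509 CPM in fed libraries. The groups were separate but close, with a change of −0.22 (SE 0.08, edgeR adjusted p = 0.0081) that was −0.335 with library totals alone and −0.38 with the abundance trend removed. Without starved replicate 3, or without fed replicate 2, it missed the threshold (edgeR adjusted p = 0.0522 in each case). CANX footprints were at 592, 745 and 705 CPM in starved libraries and 970, 848 and 821 CPM in fed libraries, a change of −0.42 (SE 0.12, edgeR adjusted p = 0.0146), which missed the threshold without fed replicate 1 (−0.37, edgeR adjusted p = 0.0632) and with the abundance trend removed (−0.26, edgeR adjusted p = 0.105). RefSeq places CBY3 and a pseudogene within the span of CANX.

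PDIA4 (ERp72) is a disulfide isomerase, an enzyme that forms and reshuffles disulfide bonds in folding proteins. Starved libraries held 111, 128 and 120 CPM of PDIA4 RNA, and fed libraries 236, 220 and 231.5 CPM. All starved values were far below the fed ones (−0.83, SE 0.07, 0.563-fold, edgeR adjusted p = 1.39e-16). Footprints fell alongside, to 145, 182 and 187 CPM in starved libraries against 368, 344 and 363.5 CPM in fed libraries (−1.11, SE 0.13, 0.464-fold, edgeR adjusted p = 3.34e-05). In the main fit, PDIA4 and CALR were the pair with more than a 1.5-fold fall of RNA. HERPUD1, DNAJB9 and HSPA5 were the ones with more than a 1.5-fold rise. HSPA5 passed that size only narrowly (1.53-fold). Its RNA rise was 0.50 with library totals alone and 0.44 with the abundance trend removed, both under 1.5-fold but still called.

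**Figure D3:**
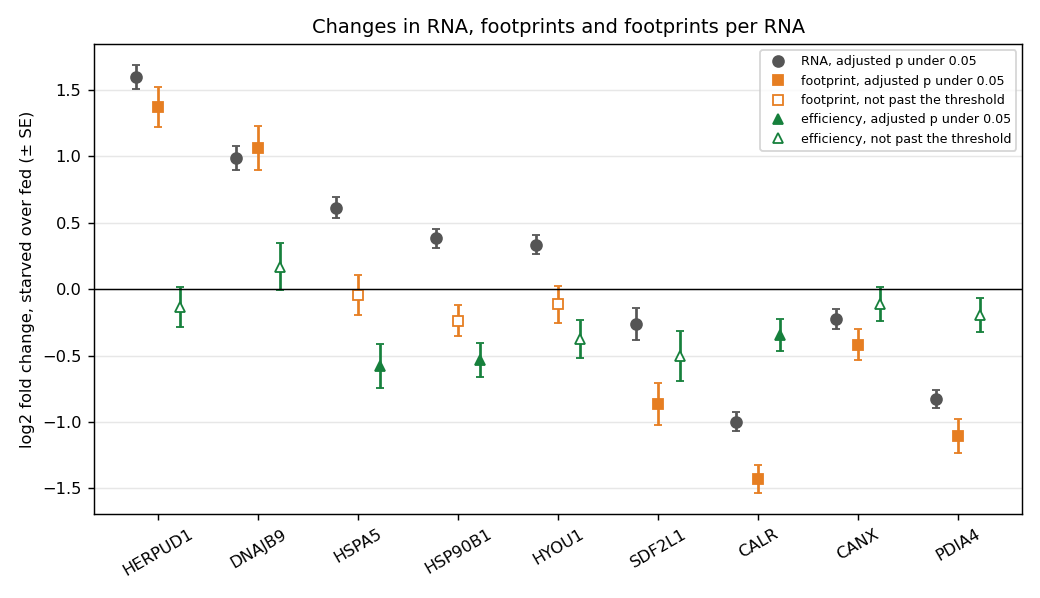
Fitted log2 fold changes of starved over fed for RNA (grey circles), footprints (orange squares) and footprints per RNA (efficiency, green triangles), with bars of ± 1 SE. Filled symbols have an adjusted p under 0.05. RNA changes run between −1.0 (CALR) and 1.60 (HERPUD1), and footprint changes lie below RNA changes for every gene but DNAJB9.

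Footprints relative to RNA, called translational efficiency, were compared in 1 model of all 12 libraries through the term for assay by treatment. That model gives both assays the same spread, although footprints varied more than RNA (biological coefficient of variation 13.7% against 5.75%). Its adjusted p-values may therefore be too low, above all those near the threshold. Efficiency was lower in starved cells for HSPA5, HSP90B1 and CALR, and no gene of the set was called higher. Across 11027 transcripts 11.7% were called lower and 11.1% higher. The median change was −0.35 over the 9 genes, 8 of which lay below 0, and −0.02 over all transcripts. The split of calls over all transcripts turned with the scaling: it was 1227 higher and 1292 lower with TMM factors, 1567 and 803 with library totals alone, and 1005 and 1739 with the TMM factors of the separate fits.

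In HSPA5 the ratio of footprint CPM to RNA CPM, taken between libraries that share a label number, was 0.884, 1.10 and 1.26 in starved cells and 1.74, 1.5 and 1.38 in fed cells. The numbers are not known to pair the RNA and footprint libraries, so the ratios describe the groups and the test does not use the pairs. The groups did not overlap, and the efficiency of HSPA5 was lower by the test (−0.58, SE 0.17, 0.669-fold, edgeR adjusted p = 0.0159). HSP90B1 had ratios of 0.665, 0.692 and 0.713 in starved cells and 1.14, 0.862 and 0.856 in fed cells, also separate (−0.54, SE 0.13, 0.690-fold, edgeR adjusted p = 0.00564). Both calls held when any 1 of the 12 libraries was left out, with changes between −0.66 and −0.43 for HSPA5 and between −0.60 and −0.43 for HSP90B1. With library totals alone HSPA5 was at −0.48 and missed the threshold (edgeR adjusted p = 0.0554), while HSP90B1 was at −0.44 and remained called.

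CALR ratios were 1.61, 1.57 and 1.81 in starved cells and 1.90, 2.04 and 2.08 in fed cells. The groups were close, and the change of −0.35 (SE 0.12, edgeR adjusted p = 0.045) barely passed the test. CALR missed the threshold in 9 of the 12 fits that left out a library, which were those without starved RNA replicate 2 or 3, fed RNA replicate 2 or 3, starved footprint replicate 1 or 3, or any fed footprint replicate (edgeR adjusted p between 0.0525 and 0.121). It was also not called with library totals alone (−0.25, edgeR adjusted p = 0.174) or with the replicate number as a block (−0.35, edgeR adjusted p = 0.0914).

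SDF2L1 and HYOU1 lay just beyond the threshold. SDF2L1 was at −0.51 (SE 0.19, edgeR adjusted p = 0.0582), with ratios of 1.51, 1.55 and 1.80 in starved cells and 1.83, 1.90 and 3.11 in fed cells, and it was called without fed footprint replicate 1 (−0.63, edgeR adjusted p = 0.0294). HYOU1 was at −0.37 (SE 0.14, edgeR adjusted p = 0.0659), with ratios of 0.796, 0.953 and 0.858 in starved cells and 1.10, 1.12 and 0.994 in fed cells. It was called without fed RNA replicate 1 (−0.44, edgeR adjusted p = 0.0499) or starved footprint replicate 2 (−0.48, edgeR adjusted p = 0.0171). With libraries matched by label number, starved ratios lay below all fed ratios for 6 of the 9 genes. These were the 5 named here and PDIA4, whose nearest ratios were 1.556 in starved and 1.558 in fed cells. The count depends on that matching, since other matches of the libraries make the ratios of CALR, HYOU1 and PDIA4 overlap. Matched by label number, starved ratios also lay below all fed ratios for 14.9% of the 11007 transcripts with RNA counts in every library. The same held for 618 of the 2206 in the most abundant of 5 bins by RNA level, which holds 5 of these 6 genes. CANX (−0.11, SE 0.13) and PDIA4 (−0.20, SE 0.13) were not called.

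**Figure D4:**
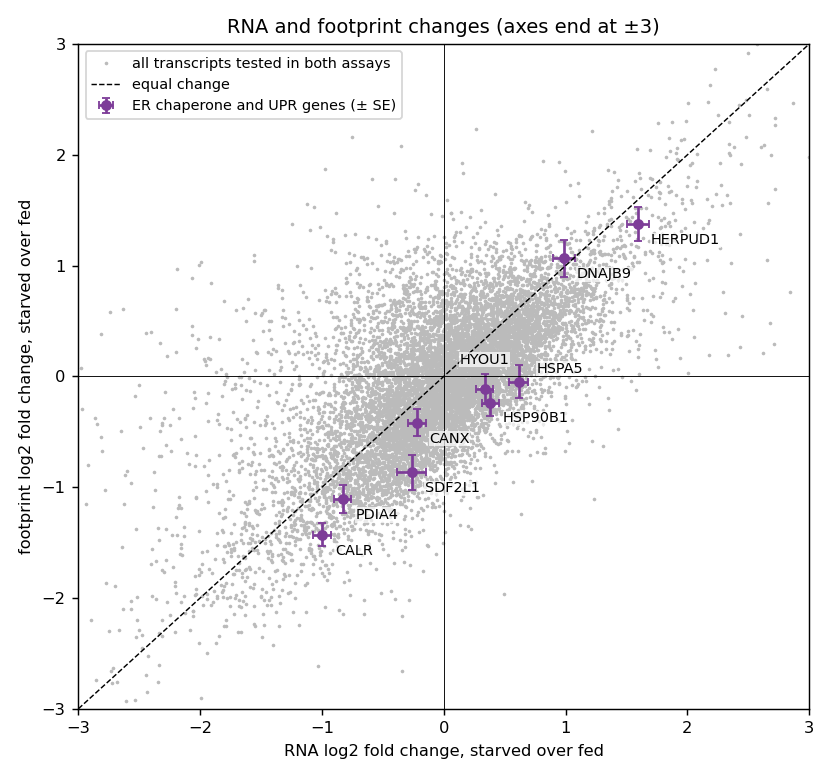
RNA change (horizontal) against footprint change (vertical), both as log2 fold changes of starved over fed, for the 9 genes (purple, ± SE) and all 11027 transcripts tested in both assays (grey; 73 lie outside the axes, which end at ±3). The dashed line marks equal change. HSPA5, HSP90B1 and HYOU1 sit right of 0 in RNA and just below 0 in footprints, and the others follow the diagonal or lie below it.

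The efficiency calls moved with transcript abundance. When the 11027 transcripts were divided by RNA level into 5 bins, the bin with the most RNA held 6 of the 9 genes (HSPA5, HSP90B1, HYOU1, CALR, CANX and PDIA4), and 547 of its 2206 transcripts (24.8%) were called lower in efficiency, with a median change of −0.16. HERPUD1 and DNAJB9 were in the next bin, where 16.6% were called lower, and SDF2L1 in the second from the bottom, where 4.85% were. With the abundance trend removed from each library, none of the 3 called genes passed the test: HSPA5 was at −0.35 (SE 0.18, edgeR adjusted p = 0.173), HSP90B1 at −0.29 (SE 0.14, edgeR adjusted p = 0.145) and CALR at −0.07 (SE 0.12, edgeR adjusted p = 0.712). In that fit SDF2L1 was called instead (−0.60, SE 0.19, edgeR adjusted p = 0.029), and CANX and PDIA4 turned to 0.11 and 0.07, neither of them called. The rises of HERPUD1 and DNAJB9 and the falls of CALR and PDIA4 in both assays stayed called in that fit, at 1.57 and 0.95, and −1.20 and −1.03, in RNA, and at 1.44 and 1.13, and −1.27 and −0.98, in footprints.

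**Figure D5:**
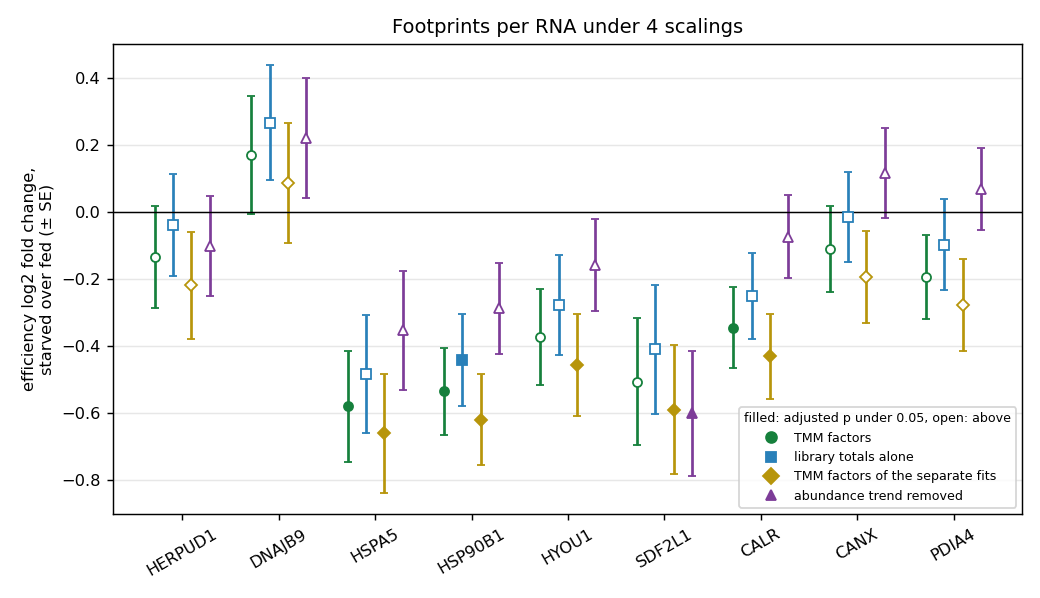
Efficiency change (log2 fold change of starved over fed, ± SE) of each gene under 4 scalings, with filled symbols where the adjusted p is under 0.05. HSPA5 and HSP90B1 stay below 0 under all 4 but are open symbols with the abundance trend removed, where SDF2L1 is the only filled one.

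As a share of all counts, the 9 genes together took 0.414 ± 0.0216% of RNA in starved libraries and 0.423 ± 0.00778% in fed libraries (SD, n = 3). Their share of footprints was 0.370 ± 0.050% in starved libraries and 0.486 ± 0.0354% in fed libraries (SD, n = 3). The starved footprint shares were 0.313, 0.404 and 0.395%, all below the fed shares of 0.527, 0.463 and 0.469%, and starved replicate 1, where HSPA5 was also low, gave the lowest. HSPA5, CANX, CALR and HSP90B1 make up most of these sums, so the shares describe those 4 genes more than the rest.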

How the data were processed

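The values are raw counts, deposited by the authors as 1 table for RNA and 1 for footprints with a row for each Ensembl transcript. The submitters' processing notes name STAR, cutadapt, DESeq2 and UMI-tools, and the build GRCh38.p13. Information on the counting tool, annotation release, shared reads and the region counted (coding sequence or whole transcript) is not given in the sources used here. Per the labels' protocols, a TruSeq kit served for the RNA libraries and RiboCop for depletion of ribosomal RNA.

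Counts were tested in edgeR 4.0.16 (R 4.3.3), two-sided, with TMM factors, filterByExpr and treatment as the only term, separately for RNA and footprints. Efficiency was the interaction over all 12 libraries, with TMM factors within each assay over the transcripts kept in both. SE is the log2 fold change over the square root of F. DESeq2 1.42.0 was an alternative. Tests were tried on simulated counts. Libraries of a group varied less in RNA (biological coefficient of variation 5.75%) than in footprints (13.7%), whose changes are less precise. No replicate pair was identical (chi-square per degree of freedom 2.07 to 7.73 over the 12 pairs within groups). All changes are relative to other transcripts. The named genes are all genes of the list, and the genes, lists and tests were chosen with earlier results of these data known. The abundance trend was removed with a loess of each library (span 0.3). ERSE-II was added to the search after the promoters had been read. Footprints per codon were not computed, and lengths are not used here.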

Additional observations from a re-analysis of the deposited data

Results flagged for a closer look

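Fitted changes of RNA and footprints had opposite signs for 2 genes whose interaction of assay and treatment was called. HSPA5 had an efficiency change of −0.58, with RNA at 0.61 and footprints at −0.05. HSP90B1 had an efficiency change of −0.54, with RNA at 0.38 and footprints at −0.24. Neither footprint change was called, so a fall of footprints was not shown for them. The footprint value of HSPA5 was above 0 under 4 alternatives, between 0.00454 and 0.105. With the abundance trend removed neither efficiency call held (HSPA5 −0.35, edgeR adjusted p = 0.173, and HSP90B1 −0.29, edgeR adjusted p = 0.145).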

How the results depend on the processing

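Across 12 RNA, 12 footprint and 20 efficiency alternatives, 352 fitted values of the 9 genes kept their direction and their side of the threshold, 27 lost a call, 11 gained one and 6 changed sign, none of them called. The sign changes were HSPA5 footprints (0.00464 with library totals alone, 0.10 with the abundance trend removed, and between −0.14 and 0.11 without 1 library) and the efficiency of CANX (0.11) and PDIA4 (0.0674) with the abundance trend removed. The number of genes called lower in RNA was 2 to 4 without 1 library (3593 to 3854 of all transcripts), that in footprints 3 to 4 (2315 to 2738) and that in efficiency 2 to 4 (948 to 1316). The number called lower in efficiency, 3 above, was 1 with library totals alone (803 of all transcripts), 1 with the abundance trend removed (1001), 5 without a filter on low counts (1705) and 5 with the TMM factors of the separate fits (1739), which were added after the data were seen.

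With the replicate number as a block, the genes called were 5 higher and 4 lower in RNA (3962 and 3994 of all transcripts), 2 higher and 4 lower in footprints (2148 and 2507), and 0 higher and 3 lower in efficiency (1071 and 1060), where SDF2L1 (−0.53) took the place of CALR. Same-numbered starved and fed libraries did not deviate together (correlations −0.01 to 0.10 in RNA and −0.21 to −0.02 in footprints), nor did same-numbered footprint and RNA libraries (−0.01 to 0.13 in starved and −0.02 to 0.02 in fed cells), so the numbers were not taken as pairs. A block for RNA and footprint libraries of 1 label gave 4 genes lower in efficiency (1285 of all transcripts), with HYOU1 at −0.38. Footprint counts per library were 54 to 197 for DNAJB9, 71 to 229 for SDF2L1 and 69 to 381 for HERPUD1, which limits the precision of their footprint values.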
